A study of Homo sapiens with 2 samples.

Results

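Histone and DNA modifying enzyme genes were followed in NB4 cells after knockdown of the long non-coding RNA CRNDE. The genes were chosen by symbol: the KMT, KDM, KAT, HDAC, SIRT, SETD, PRMT, TET and DNMT families, together with EHMT1, EHMT2, SUV39H1, SUV39H2, NSD1, DOT1L, CREBBP, EP300 and UHRF1. This gave 80 genes of the 11619 listed, and the rule uses symbols and not measured values, though the deposited lists hold only genes above 0.5 FPKM in a library. They were sorted into 18 groups by the mark they act on and by whether they write or erase it. KDM4D, PRMT8, HDAC9 and HDAC11 were not analysed here, and KAT14, which is listed under the older symbol CSRP2BP, falls outside the rule.

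NB4 is a human acute promyelocytic leukemia (APL) cell line with the PML/RARα fusion. The study asked which transcripts change when CRNDE is inhibited. NB4 cells were infected with lentivirus for a CRNDE shRNA (sh-CRNDE) or for a non-targeting control shRNA (sh-Control), both built in the vector pLVX-shRNA2, and RNA was taken on day 3. Both groups therefore carry the fusion, the vector and a lentiviral infection, and the CRNDE shRNA that the sequenced cells carried is not given in the sources used here. There was 1 library per group, so none of the differences below could be checked against replicates, and p-values are not given. Values are FPKM, fragments per kilobase of transcript scaled to mapped fragments, and a change is the log2(FPKM + 1) of sh-CRNDE minus that of sh-Control. A gene was counted as changed when this difference was past 1.5-fold, which is 0.585 on the log2 scale. Because 1 is added, the change of genes of low FPKM is understated. Where a pair of values is given for a gene, sh-Control comes first.

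Histone tails are methylated and acetylated by writer enzymes, and eraser enzymes take these groups off again. Methylation of histone H3 at lysine 4 (H3K4) and acetylation go with active genes, whereas methylation of H3K9, of H3K27 and of DNA goes with silent ones. In APL, PML/RARα recruits histone deacetylases and DNA methyltransferases to its target genes, which holds cells at the promyelocyte stage.

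The targeted RNA was checked first. CRNDE was at 5.92 FPKM under sh-Control and at 1.85 FPKM under sh-CRNDE, which is a fall of 1.28 in log2(FPKM + 1), written as a change of -1.28. GAPDH, the reference gene of the study, was at 942 FPKM under sh-Control and at 785 FPKM under sh-CRNDE, a change of -0.26. Of 8 promyelocyte markers 7 were listed, with a summed level of 2145 FPKM under sh-Control and 961 FPKM under sh-CRNDE, led by MPO, the myeloperoxidase gene, at 1135 and 738 FPKM. Of the 7 markers 5 fell past 1.5-fold (71.4%, against 8.83% of all genes listed), the granule genes MPO, CTSG, AZU1, PRTN3 and SRGN. The surface markers stayed within 1.5-fold, CD33 lower at 4.46 and 3.74 FPKM and CD38 higher at 0.578 and 1.22 FPKM. Of 15 markers of other blood cells 5 were listed, with a summed level of 50.8 FPKM under sh-Control and 36.5 FPKM under sh-CRNDE. Of these, the T cell marker CD3D and the B cell marker CD79A lay between 0.256 and 1.16 FPKM, with CD79A past 1.5-fold lower. CD4 (33.4 and 22.5 FPKM) and NKG7 (14.8 and 11.9 FPKM) had the highest levels. The part of the fall in promyelocyte markers in the results below was not tested.

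The enzyme genes were expressed at moderate levels and changed seldom. Their median level was 5.23 FPKM under sh-Control and 5.01 FPKM under sh-CRNDE, the values ran from 0.536 to 77.7 FPKM, and 0 of the 80 genes were listed at 0 in a library. Of the 80 genes, 7 were past 1.5-fold (8.75%), against 17.2% of all genes listed. Of protein-coding genes in the same range of mean FPKM and above 0 in both libraries, 15.2% were past 1.5-fold. Only 2 enzyme genes rose, the acetyltransferase gene KAT6A and the H3K9 methyltransferase gene SUV39H1, where 8.38% of all genes rose. The 5 that fell were KMT2D, HDAC5, SIRT6, TET3 and EP300, where 8.83% of all genes fell. In bulk RNA, fewer cells of a type and less RNA per cell cannot be told apart.

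Small differences ran mostly one way. Of the 80 genes, 55 were lower and 25 were higher in sh-CRNDE, so 68.8% were lower, against 50.8% of all genes listed. The median change was -0.12, with quartiles of -0.28 and 0.07. Over all genes the median was -0.01 and the quartiles were -0.26 and 0.23. The summed level of the enzyme genes was 684 FPKM under sh-Control and 640 FPKM under sh-CRNDE, a difference of -6.44%. Over all genes listed the sum was 141217 FPKM under sh-Control and 170373 FPKM under sh-CRNDE, a difference of 20.6%. Over protein-coding genes alone the difference was 0.226%. The sums given for groups below are without scaling. Of the genes just inside and outside the threshold, EP300 was at -0.60, and SETD1A (-0.54), HDAC10 (-0.50) and KMT2A (-0.49) came next.

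**Figure D1:**
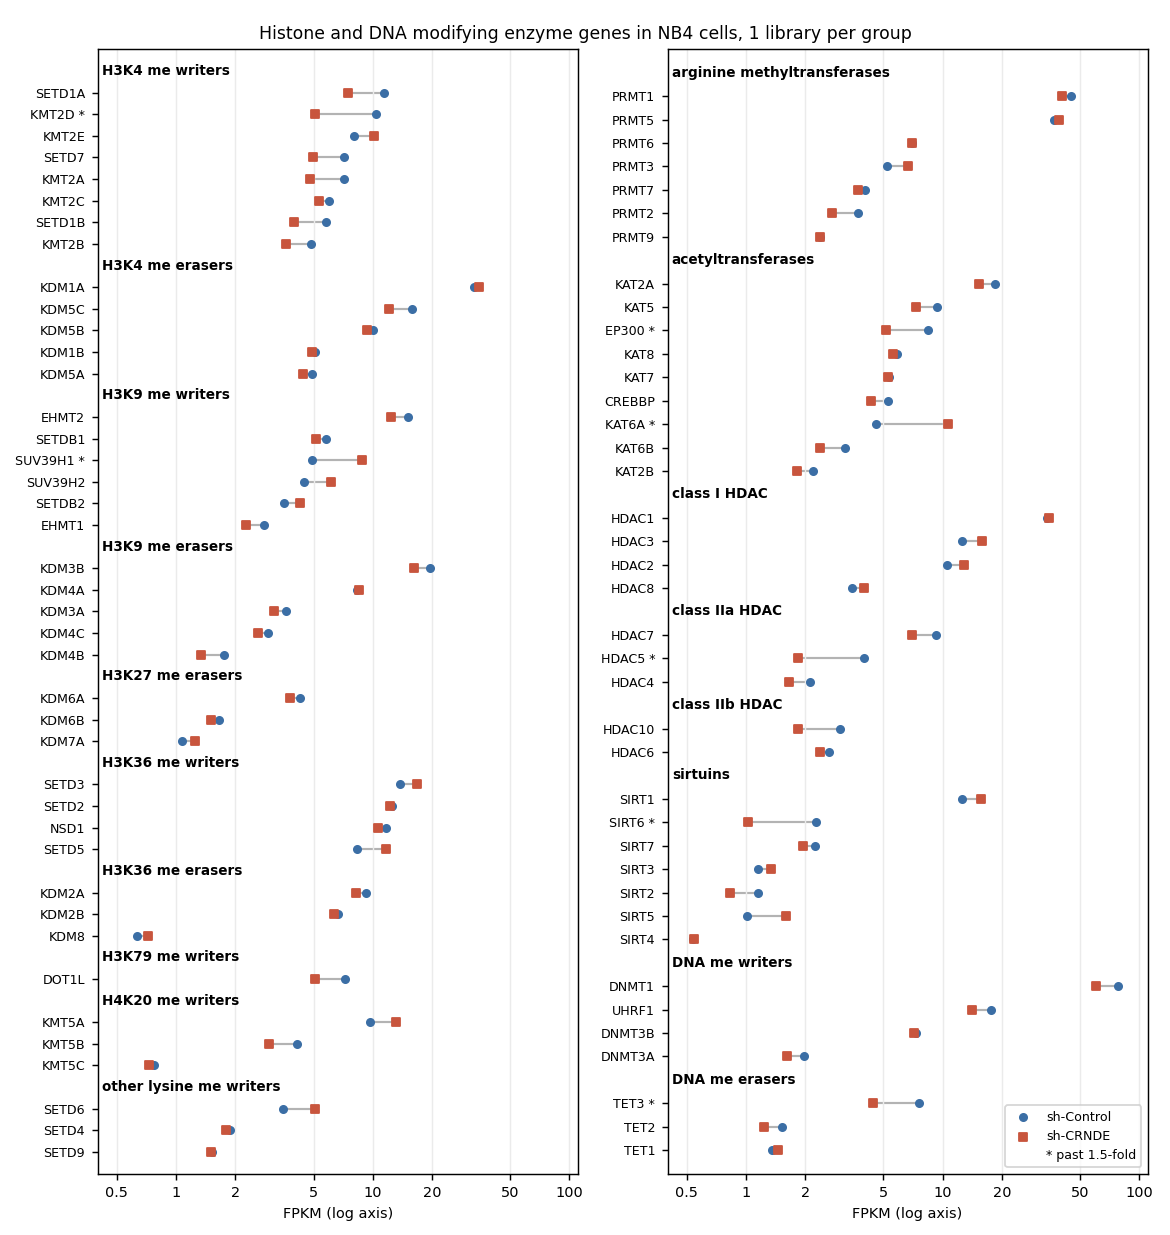
Level of each of the 80 enzyme genes on a logarithmic FPKM axis, with sh-Control as blue circles and sh-CRNDE as red squares, 1 library per group, sorted by group and by level. Stars mark the 7 genes past 1.5-fold, and DNMT1 stands highest, at 77.7 and 60.3 FPKM.

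Only 16 of the 80 genes were at 10 FPKM or more in both libraries. DNMT1, the maintenance DNA methyltransferase, had the highest level, above 97.8% of all genes in sh-Control. It was followed by the arginine methyltransferase genes PRMT1 and PRMT5, the deacetylase gene HDAC1 and the H3K4 demethylase gene KDM1A, all above 30 FPKM in both libraries. None of these 5 genes was past 1.5-fold, and their changes lay between -0.36 and 0.09. The 7 changed genes were at lower levels, from 2.27 to 10.3 FPKM under sh-Control.

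**Figure D2:**
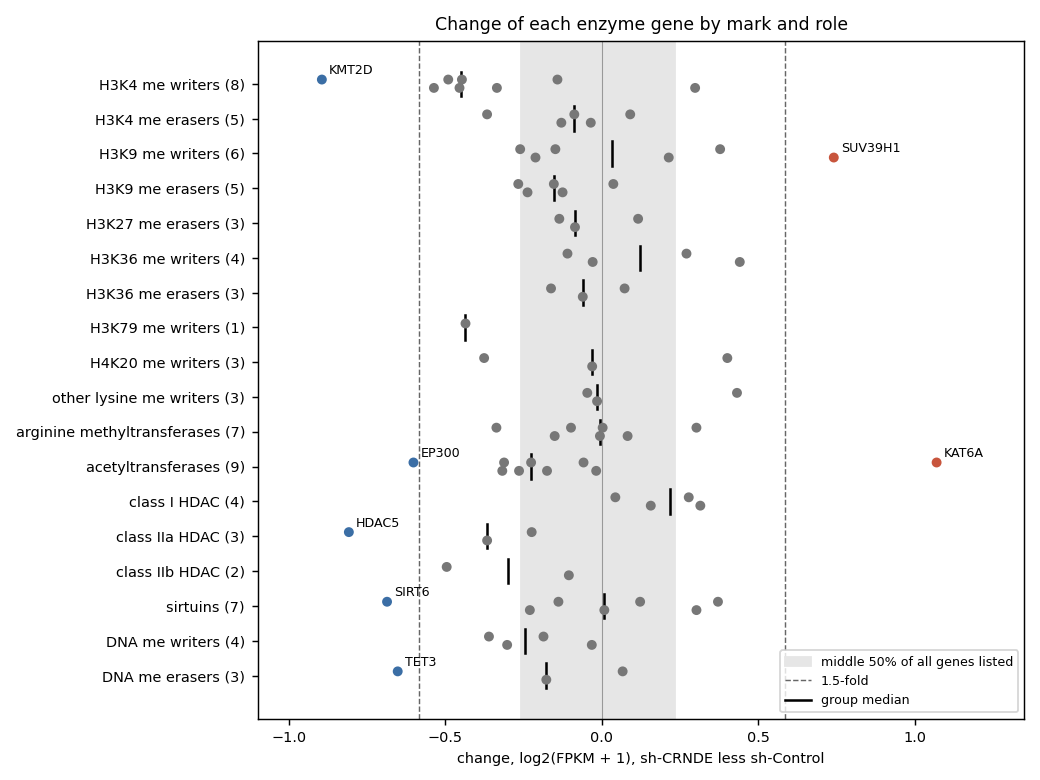
Change of each enzyme gene on the log2(FPKM + 1) scale, sh-CRNDE less sh-Control, 1 point per gene, by group with the number of genes. Black ticks are group medians, the grey band is the middle 50% of all genes listed (-0.26 to 0.23) and dashed lines mark 1.5-fold, with the median of the H3K4 methylation writers at -0.45.

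Writers of H3K4 methylation were mostly lower in sh-CRNDE. Of 8 genes 7 were lower, 1 of them past 1.5-fold, and the median change was -0.45, the lowest of the 18 groups without subtraction. After the GC subtraction described further on, the median was -0.25, and that of the erasers of DNA methylation, at -0.31, was lower. Their summed level was 60.6 FPKM under sh-Control and 45.4 FPKM under sh-CRNDE, a difference of -25.1%. KMT2D (ENSG00000167548, chr12:49018975-49060794, minus strand, GRCh38, 55 exons), which places H3K4 monomethylation at enhancers, fell from 10.3 FPKM under sh-Control to 5.09 FPKM under sh-CRNDE. Its change of -0.89 was the lowest of the 80 genes, and 3.94% of all genes listed had a lower one.

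The other catalytic subunits of the MLL and SET1 complexes stayed within 1.5-fold and were all lower. SETD1A, a catalytic subunit of the SET1 complex that trimethylates H3K4 at promoters, was at 11.3 FPKM under sh-Control and 7.51 FPKM under sh-CRNDE, and had the highest mean level of the group. Its paralogue SETD1B was at 5.79 and 3.98 FPKM, a change of -0.45. KMT2A, which encodes MLL and is rearranged in a class of acute leukemias, was at 7.14 FPKM under sh-Control and 4.79 FPKM under sh-CRNDE. KMT2B, its nearest relative, was at 4.84 and 3.63 FPKM, a change of -0.34. KMT2C, the partner paralogue of KMT2D at enhancers, was at 5.98 and 5.32 FPKM, a change of -0.14. Parts of KMT2C are repeated in other places of the genome, and how such reads were assigned is not given in the sources used here. Over these 6 genes, KMT2A to KMT2D with SETD1A and SETD1B, the median change was -0.47 and the summed level went from 45.4 to 30.3 FPKM. SETD7, a monomethyltransferase outside these complexes, was at 7.16 FPKM under sh-Control and 4.96 FPKM under sh-CRNDE, a change of -0.46. KMT2E stood apart as the only higher gene, at 8.04 and 10.1 FPKM, a change of 0.30. KMT2E belongs to the family by its SET domain, but is better known as a reader of H3K4 methylation.

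Of the 5 erasers of H3K4 methylation 4 were lower, none was past 1.5-fold, and the median change was -0.09, or -0.17 after the GC subtraction. KDM1A (LSD1), an amine oxidase that takes methyl groups off H3K4 and is a drug target in acute myeloid leukemia, was at 32.5 FPKM under sh-Control and 34.7 FPKM under sh-CRNDE, a change of 0.09. KDM5C, a JmjC demethylase of H3K4, was at 15.9 and 12.1 FPKM, a change of -0.37. KDM5B, KDM5A and KDM1B had changes between -0.13 and -0.04. The summed level of the erasers was 68.4 FPKM under sh-Control and 65.5 FPKM under sh-CRNDE, a difference of -4.29%.

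Since the study places CRNDE as a sponge of the miR-181 family, the enzyme genes were searched for its seed match. The family shares bases 2 to 8, printed in capitals in the mature sequences from RefSeq (GRCh38.p14) to show that 1 site serves all 4 members.
hsa-miR-181a-5p: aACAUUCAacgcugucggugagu
hsa-miR-181b-5p: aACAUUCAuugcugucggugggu
hsa-miR-181c-5p: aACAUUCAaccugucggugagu
hsa-miR-181d-5p: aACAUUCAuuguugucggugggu
The match TGAATGT was read on the sense strand of the 3' UTR of the canonical GENCODE transcript. It was found in 8 of the 80 enzyme genes (10%), at 14 places in all, against 21.4% of 9946 protein-coding genes. The median 3' UTR length was 1893 nucleotides in the 8 genes and 1301 nucleotides in the 72 enzyme genes without a match.

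KMT2A and KDM5A, a writer and an eraser of H3K4 methylation, held 4 and 3 of the 14 matches, the highest numbers. The sites are shown with 8 bases on each side and the match in capitals, for KMT2A at chr11:118525660-118525682, chr11:118526230-118526252, chr11:118526280-118526302 and chr11:118526698-118526720 (plus strand, GRCh38), in that order.
KMT2A site 1: tattctaaTGAATGTatctttct
KMT2A site 2: tctgcccaTGAATGTtgccagtc
KMT2A site 3: tttggttaTGAATGTtggggtta
KMT2A site 4: cgaaagacTGAATGTaaaagtaa
For KDM5A they lie on the minus strand at chr12:283931-283953, chr12:283179-283201 and chr12:281496-281518.
KDM5A site 1: tttgtgtgTGAATGTttgaaact
KDM5A site 2: ttaaaaatTGAATGTaattttaa
KDM5A site 3: tttggataTGAATGTcccaagtg
The changes of the 8 genes with a match ran from -0.49 in KMT2A to 0.30 in SIRT1, with 6 of them lower. Their median was -0.14, against -0.11 in the enzyme genes without a match. Over all protein-coding genes with a 3' UTR, the medians were 0.05 with a match and -0.03 without. The median 3' UTR length was 2957.5 nucleotides in those with a match and 958 nucleotides in those without. The medians were not adjusted for this length or for GC content, and the part of miR-181 in them was not tested. None of the 7 enzyme genes past 1.5-fold held a match, where 10% of the 80 enzyme genes did. Of protein-coding genes with a 3' UTR, 15.7% of those with a match and 15.6% of those without were past 1.5-fold. The other genes with a match were KAT7 with 2, and KAT2B, KMT2C, KMT2E, PRMT2 and SIRT1 with 1 each. A match is a string of letters and does not show that the site is used.

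Writers of H3K9 methylation lay on both sides of 0, 3 higher and 3 lower. SUV39H1 (ENSG00000101945, chrX:48695554-48709016, plus strand, GRCh38), which trimethylates H3K9 in constitutive heterochromatin, rose from 4.89 FPKM under sh-Control to 8.84 FPKM under sh-CRNDE, a change of 0.74. Its paralogue SUV39H2 was at 4.49 and 6.13 FPKM, a change of 0.38. Of the canonical exon bases of SUV39H1, 25.04% lie under exons of another annotated gene. The kit does not mark strand, so reads of overlapping genes cannot be told apart.

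EHMT2 (G9a) and EHMT1 (GLP), which form a complex that monomethylates and dimethylates H3K9 in euchromatin, were both lower. EHMT2 had the highest level of the H3K9 writers, 15.1 FPKM under sh-Control and 12.4 FPKM under sh-CRNDE, a change of -0.26. EHMT1 was at 2.79 and 2.27 FPKM, a change of -0.21. The SETDB pair was split, with SETDB1, the silencer of endogenous retroviruses, at -0.15 and SETDB2 at 0.21.

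Of the 5 erasers of H3K9 methylation 4 were lower and none was past 1.5-fold, with a median of -0.15. KDM3B, a JmjC demethylase of monomethylated and dimethylated H3K9, had the highest level, at 19.6 FPKM under sh-Control and 16.1 FPKM under sh-CRNDE, a change of -0.27. KDM4A, which acts on trimethylated H3K9 and H3K36, was at 8.27 and 8.50 FPKM, a change of 0.04. Exons of other genes cover 56.4% of its exon bases. The summed level of the H3K9 writers went from 36.6 to 39.1 FPKM and that of the erasers from 36.2 to 31.7 FPKM.

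Of the erasers of H3K27 methylation, KDM6A (UTX), a subunit of the KMT2C and KMT2D complexes, had the highest level, at 4.28 FPKM under sh-Control and 3.80 FPKM under sh-CRNDE, a change of -0.14. KDM6B and KDM7A, at 1.66 FPKM or less, were at -0.09 and 0.12. EZH2 and EZH1, the H3K27 methyltransferases of Polycomb, carry symbols outside the rule and were named after their values were seen. EZH2 was at 20.1 FPKM under sh-Control and 20.4 FPKM under sh-CRNDE, and EZH1 at 2.14 and 2.23 FPKM.

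The 4 genes placed with H3K36 methylation writers held 2 higher and 2 lower genes, all within 1.5-fold. SETD3, at 13.7 FPKM under sh-Control and 16.8 FPKM under sh-CRNDE, had the highest level and a change of 0.27. SETD3 is best known as the histidine methyltransferase of actin. SETD2, which trimethylates H3K36 along transcribed genes, was at 12.5 and 12.2 FPKM, a change of -0.03. NSD1, which dimethylates H3K36, was at 11.6 and 10.7 FPKM, a change of -0.11, and SETD5 was at 8.35 and 11.7 FPKM, a change of 0.44. The H3K36 erasers KDM2A, KDM2B and KDM8 had changes between -0.16 and 0.07, with KDM2A highest, at 9.27 FPKM under sh-Control and 8.18 FPKM under sh-CRNDE.

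DOT1L, the methyltransferase of H3K79 and a dependency of MLL-rearranged leukemia, was at 7.25 FPKM under sh-Control and 5.09 FPKM under sh-CRNDE, a change of -0.44. The H4K20 writers were split. KMT5A, which places the first methyl group on H4K20 and is needed for cell division, was at 9.73 FPKM under sh-Control and 13.2 FPKM under sh-CRNDE, a change of 0.40. KMT5B, which adds further methyl groups, was at 4.13 and 2.96 FPKM, a change of -0.38, and KMT5C was at 0.769 and 0.732 FPKM. Of the remaining lysine methyltransferase genes, SETD6 was highest, at 3.50 FPKM under sh-Control and 5.07 FPKM under sh-CRNDE, a change of 0.43, with 33.5% of its exon bases under exons of other genes. SETD4 and SETD9 were at -0.05 and -0.02. Over all histone lysine methylation enzymes, 17 of 25 writers and 12 of 16 erasers were lower, with medians of -0.11 in both. Each count moved by at most 2 genes with another scaling or subtraction, to 15 writers and 11 erasers.

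The arginine methyltransferase genes differed little between the libraries. PRMT1, which makes most asymmetric dimethylarginine, was at 44.8 FPKM under sh-Control and 40.2 FPKM under sh-CRNDE, a change of -0.15. PRMT5, the main enzyme of symmetric dimethylarginine, was at 36.8 and 39.1 FPKM, a change of 0.08. The 7 genes had changes from -0.34 for PRMT2 to 0.30 for PRMT3, with 4 lower and 3 higher. PRMT6, the only gene of the 80 with 1 exon, was at 7.01 and 6.97 FPKM, and PRMT9 at 2.38 and 2.39 FPKM. The median of -0.01 was above 0 with centring and 0.03 once the median of genes with a like GC content was subtracted, so it has no stable sign.

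Of the 9 lysine acetyltransferase genes 8 were lower, or 7 after quantile normalization or the GC subtraction described further on, and KAT6A, which was higher, changed more than any other enzyme gene. KAT6A (ENSG00000083168, chromosome 8, 41929479 to 42051994, minus strand, GRCh38), also called MOZ and fused to other genes in acute myeloid leukemia, rose from 4.58 FPKM under sh-Control to 10.7 FPKM under sh-CRNDE. Its change of 1.07 was the only one of the 80 past 2-fold. KAT6B, its paralogue in the same complex, was lower, at 3.20 and 2.37 FPKM, a change of -0.32.

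EP300 (ENSG00000100393, chr22:41092592-41180077, plus strand, GRCh38), the coactivator p300, fell from 8.38 FPKM under sh-Control to 5.18 FPKM under sh-CRNDE, a change of -0.60. CREBBP, which encodes the closely related CBP, was at 5.25 and 4.34 FPKM, a change of -0.23. KAT2A (GCN5), the acetyltransferase of SAGA, had the highest level of the group, at 18.6 FPKM under sh-Control and 15.3 FPKM under sh-CRNDE, a change of -0.26. KAT2B (PCAF), which takes its place in related complexes, was at -0.18. KAT5 (TIP60) was at 9.34 and 7.33 FPKM, a change of -0.31, and exons of RNASEH2C lie over 54.8% of its exon bases. KAT7 and KAT8, of the same MYST family, were at -0.02 and -0.06. The median of the 9 genes was -0.23 and their summed level went from 62.7 to 57.9 FPKM.

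Histone deacetylase genes separated by class. All 4 genes of class I, which includes nuclear catalytic subunits of corepressor complexes, were higher in sh-CRNDE. All 3 genes of class IIa, the regulated deacetylases that bind MEF2 factors, were lower. HDAC1 had the highest level, 33.7 FPKM under sh-Control and 34.8 FPKM under sh-CRNDE, a change of 0.04. HDAC2, its partner in the SIN3 and NuRD complexes, was at 10.5 and 12.9 FPKM, a change of 0.28. HDAC3, the deacetylase of the NCoR and SMRT complexes that PML/RARα binds, was at 12.5 and 15.8 FPKM, a change of 0.31. HDAC8, which acts on cohesin, was at 3.47 and 3.98 FPKM, a change of 0.16, with 68.0% of its exon bases under exons of another gene. None of the class I genes was past 1.5-fold, and their median was 0.22.

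In class IIa, HDAC5 (ENSG00000108840, chr17:44076746-44123702, minus strand, GRCh38) fell from 3.98 FPKM under sh-Control to 1.84 FPKM under sh-CRNDE, a change of -0.81. Exons of G6PC3 cover 23.4% of its exon bases, and G6PC3 itself was at 6.26 and 5.24 FPKM. HDAC7 was the highest of the class, at 9.30 FPKM under sh-Control and 6.99 FPKM under sh-CRNDE, a change of -0.37, and HDAC4 was at 2.11 and 1.66 FPKM, a change of -0.22. The split between the classes, 4 of 4 higher and 3 of 3 lower, was found under every scaling, pseudocount and subtraction tried. Its size was not stable, as the classes differ in median GC content, 48.4% in class I and 61.2% in class IIa. After the GC subtraction described further on, the medians were 0.11 in class I and -0.16 in class IIa, in place of 0.22 and -0.37. HDAC1 was then at 0.026. The summed levels went from 60.2 to 67.4 FPKM in class I and from 15.4 to 10.5 FPKM in class IIa. Of class IIb, HDAC10 was at 3.02 and 1.85 FPKM and was the higher of the pair in sh-Control, a change of -0.50, but 100% of its exon bases lie under exons of other genes. HDAC6, the cytoplasmic deacetylase of tubulin, was at 2.64 and 2.38 FPKM, a change of -0.11.

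The sirtuins, NAD-dependent deacylases, were 4 higher and 3 lower. SIRT6 (ENSG00000077463, chr19:4174109-4182566, minus strand, GRCh38), a nuclear deacetylase of histone H3 at telomeres and promoters, fell from 2.27 FPKM under sh-Control to 1.03 FPKM under sh-CRNDE, a change of -0.69. SIRT1, a nuclear deacetylase of histones and p53 with the highest level of the family, was at 12.6 FPKM under sh-Control and 15.8 FPKM under sh-CRNDE, a change of 0.30. The mitochondrial SIRT3, SIRT4 and SIRT5 were at 0.12, 0.01 and 0.37, the last from 1.02 to 1.61 FPKM. SIRT7 and SIRT2 were at -0.14 and -0.23. Over the 16 deacetylase and sirtuin genes, 8 were higher and 8 lower, or 10 and 6 after the GC subtraction.

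**Figure D3:**
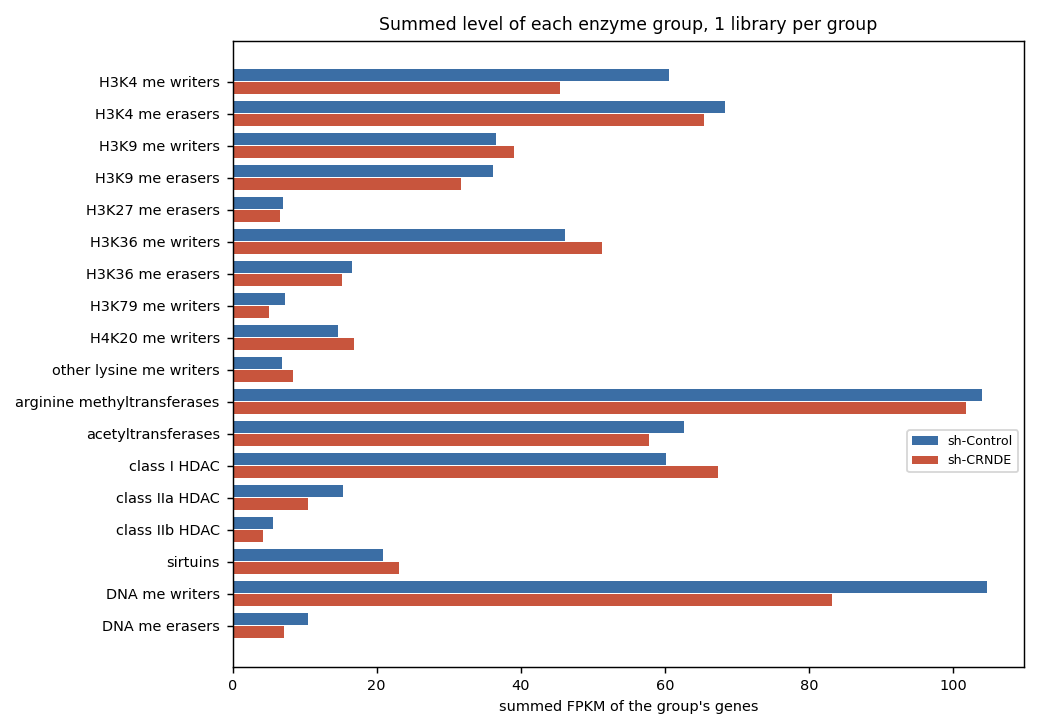
Summed FPKM of the genes of each group, with sh-Control in blue and sh-CRNDE in red, 1 library per group, on an axis that starts at 0. The sum of the H3K4 methylation writers went from 60.6 to 45.4 FPKM and that of the DNA methylation writers from 105 to 83.2 FPKM, while class I deacetylases went from 60.2 to 67.4 FPKM.

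All 4 genes placed with the DNA methylation writers were lower in sh-CRNDE, or 3 of 4 after the GC subtraction, none of them past 1.5-fold. DNMT1 was at 77.7 FPKM under sh-Control and 60.3 FPKM under sh-CRNDE, a change of -0.36. UHRF1, which brings DNMT1 to newly replicated DNA, was at 17.6 and 14.1 FPKM, a change of -0.30. The de novo methyltransferase genes were at lower levels than DNMT1 and UHRF1. DNMT3A, often mutated in acute myeloid leukemia, was at 1.98 and 1.62 FPKM, a change of -0.19, and DNMT3B was at 7.32 and 7.14 FPKM, a change of -0.03. The summed level of the 4 genes was 105 FPKM under sh-Control and 83.2 FPKM under sh-CRNDE, a difference of -20.5%, and DNMT1 made up most of it.

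The TET genes encode dioxygenases that oxidize 5-methylcytosine, the first step of active demethylation. TET3 (ENSG00000187605, chr2:73984910-74108176, plus strand, GRCh38) was the highest of them and fell from 7.56 FPKM under sh-Control to 4.45 FPKM under sh-CRNDE, a change of -0.65. TET2, a tumour suppressor of myeloid cells, was at 1.52 and 1.23 FPKM, a change of -0.18, and TET1 was at 1.352 and 1.46 FPKM, a change of 0.07. Writers and erasers of DNA methylation together were lower in 6 of 7 genes, with a median of -0.19.

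DNMT1 and UHRF1 are expressed most in S phase, so cell cycle genes were set beside them. Of 20 S-phase genes 15 were higher in sh-CRNDE and 25% were lower, against 50.8% of all genes listed, with a median of 0.12. Only MCM2, a subunit of the replicative helicase, was past 1.5-fold (5%, against 17.2% of all genes listed). It was at 74.9 FPKM under sh-Control and 41.5 FPKM under sh-CRNDE. Of 20 genes of the G2 and M phases 17 were higher and 15% were lower, with a median of 0.22. Past 1.5-fold were 4 of them (20%, against the same 17.2%). Those that rose were the kinesin genes KIF11 (35.7 and 70.9 FPKM) and CENPE (13.9 and 28.02 FPKM) and the spindle factor gene TPX2 (40.4 and 67.2 FPKM). CCNA2, the cyclin A2 gene, fell from 69.5 to 34.9 FPKM. The genes placed with the DNA methylation writers had a median of -0.24, below that of the S-phase genes. Median GC content was 54.4% in the former and 48.1% in the S-phase genes. The part of the cell cycle and of GC content in this difference was not tested.

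The enzyme genes also differed from other genes in the make-up of their transcripts. The median length of the canonical transcript was 4615.5 nucleotides, against 2886 nucleotides over all genes, with 18 exons against 8 and a GC content of 50.9% against 48.3%. In the 300 bases around the start of the gene, from RefSeq (GRCh38.p14), the median number of CpG was 29 in the 74 enzyme genes with an entry, against 27 in 8494 of all genes listed. Changes were lower at higher GC content, with a Spearman correlation across genes of -0.49 in the 80 enzyme genes and of -0.39 in 11508 genes with an annotation. The genes share the same 2 libraries and are not independent replicates. With transcript length the Spearman correlation was -0.24 in the enzyme genes and 0.02 over all genes.

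Of the 40 enzyme genes at or above their median GC content 33 were lower, with a median change of -0.23, and 5 were past 1.5-fold. Of the 40 genes below it 22 were lower, with a median of -0.02, and 2 were past 1.5-fold. The share past 1.5-fold over all genes listed, 17.2%, was larger than in either set of 40. When the median of all genes with a like GC content was subtracted from each gene, 48 of the 80 genes were lower and the median was -0.07. KAT6A (0.99), SUV39H1 (0.91), KMT2D (-0.71) and EP300 (-0.62) stayed past 1.5-fold, while TET3 (-0.57) and SIRT6 (-0.34) did not, and HDAC5 (-0.5849) lay just short of it. The H3K4 methylation writers were still lower in 7 of 8 genes, with a median of -0.25 in place of -0.45, and the H3K4 erasers in 4 of 5, with a median of -0.17 in place of -0.09.

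Exons of other annotated genes covered over 10% of the canonical exon bases of 16 of the 80 enzyme genes. Besides those given above, these were KMT2A, EHMT2, SETDB1, KDM2B, KDM8, DOT1L, PRMT5, KAT2A and SIRT5, with 11.7% to 38.8% covered. Without the 16 genes, 5 of 64 were past 1.5-fold (7.81%), against 17.2% of all genes. Exon overlap was computed only for the enzyme genes and the gene lists, so other genes that share exons remain in the 17.2%. Leaving out the 16 genes was chosen after the data were seen.

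**Figure D4:**
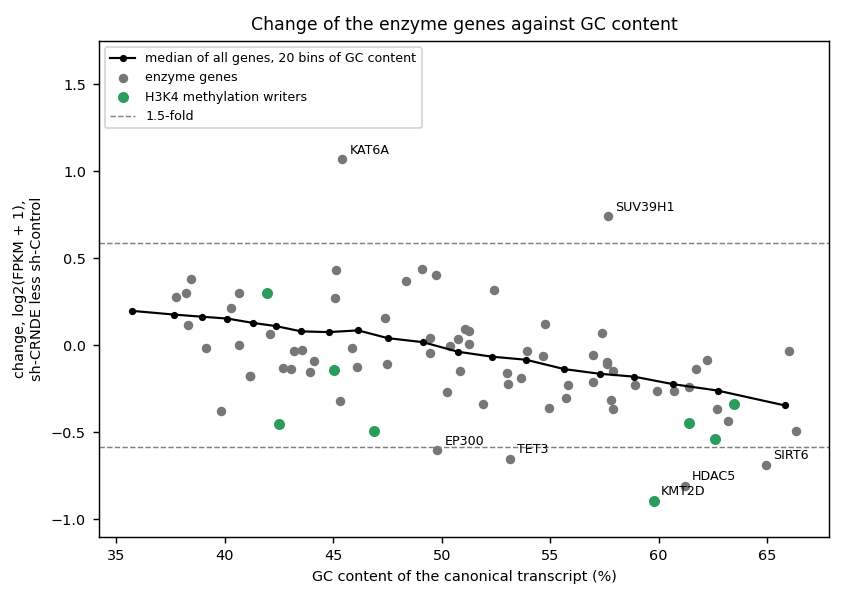
Change on the log2(FPKM + 1) scale, sh-CRNDE less sh-Control, against the GC content of the canonical transcript in percent, 1 point per enzyme gene, with H3K4 methylation writers in green. The black line joins the medians of all annotated genes in 20 bins of GC content, which run from 0.20 to -0.35, and dashed lines mark 1.5-fold.

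The enzymes work in larger complexes, and their partner genes were counted in the same way. Of 14 subunits of the COMPASS and MLL complexes, which hold the H3K4 writers, 1 rose and 2 fell (21.4%, against 17.2% of all genes listed), with a median of 0.06. RBBP5, a core subunit of all of these complexes, rose from 4.54 to 10.8 FPKM, a change of 1.09. WDR82, which is particular to the SET1 complexes, fell from 33.3 to 10.6 FPKM, a change of -1.56, and HCFC1, a shared scaffold, from 30.4 to 14.7 FPKM, a change of -0.999. WDR5, another core subunit, was at 18.4 and 26.8 FPKM, a change of 0.52, and was named after its values were seen. Lower levels, as in KMT2A to KMT2D, SETD1A and SETD1B, were thus not found in every subunit.

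Of 28 subunits of deacetylase corepressor complexes 2 rose and 3 fell (17.9%, against 17.2% of all genes listed), with a median of -0.06. The SIN3 subunit genes SAP18 (20.5 and 44.02 FPKM), SAP30 (6.66 and 4.06 FPKM) and SUDS3 (15.5 and 4.79 FPKM) were all past 1.5-fold, the first of them higher and the other pair lower. GATAD2B, of the NuRD complex, rose from 3.68 to 10.1 FPKM, and ELMSAN1, of the mitotic deacetylase complex, fell from 5.13 to 2.50 FPKM. Of 32 subunits of acetyltransferase complexes 1 rose and 2 fell (9.38%, against the same 17.2%), with a median of -0.03. TADA2B, an adaptor of SAGA, rose from 0.460 to 4.14 FPKM. TRRAP, the large scaffold of SAGA and of the TIP60 complex, fell from 17.7 to 9.08 FPKM, a change of -0.89. BRPF3, a scaffold of MYST acetyltransferases, fell from 4.85 to 1.66 FPKM.

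Of 20 related enzyme genes whose symbols fall outside the rule, 15 were higher in sh-CRNDE, 1 rose past 1.5-fold and none fell past it (5%, against 17.2% of all genes listed), with a median of 0.10. SMYD5, a SET and MYND domain methyltransferase, rose by 1.37, from 3.50 to 10.7 FPKM. In this list 25% of the genes were lower, against 68.8% of the 80 enzyme genes, and its median GC content was 49.2%.

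**Figure D5:**
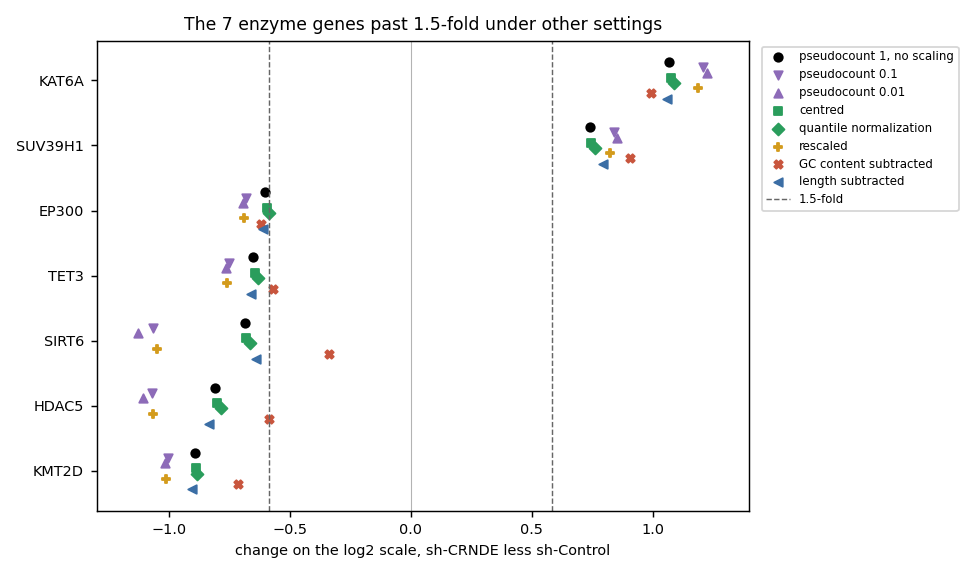
Change of the 7 enzyme genes past 1.5-fold under each pseudocount, scaling and subtraction, sh-CRNDE less sh-Control on the log2 scale, 1 symbol per setting. All 7 keep their side of 0, and only the subtraction for GC content brings SIRT6, TET3 and HDAC5 inside the dashed lines at 1.5-fold.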

How the data were processed

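RNA of NB4 cells was sequenced by the authors in 2 libraries, 1 sh-CRNDE and 1 sh-Control, with the TruSeq RNA kit v2, which does not mark strand, on an Illumina MiSeq. The submitters' processing notes name fastp 0.20.0, HISAT2 2.0.4, StringTie 1.2.3 and GRCh38. The annotation version and the rules for reads with several matches are not given in the sources used here. Levels were deposited as FPKM, without read counts, for genes above 0.5 FPKM in at least 1 library, and the depth of the libraries is unknown, so no counting interval could be given.

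Genes were matched by Ensembl identifier to GENCODE release 44 on GRCh38. Of 11619 identifiers 11508 matched and 111 did not. Coordinates, exons, length, GC content and 3' UTRs are those of the canonical transcript. Exon overlap is the share of its exon bases under exons of other genes on either strand.

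The change is log2(FPKM + 1) in sh-CRNDE less sh-Control, without scaling, over all genes. With 1 library per group no test was run, and a gene was called when past 1.5-fold. The members and gene lists were chosen with earlier results of these data known. Both values are given for each member past 1.5-fold and for the member of highest mean FPKM in each group, and list genes past 1.5-fold are named, other members may be named with their values, and any other gene is said to have been named after its values were seen. Values of some list genes are not reported here. Alternatives were pseudocounts of 0.1 and 0.01, centring on the median, quantile normalization, rescaling without mitochondrial and small RNA genes, a 2-fold threshold, filters that keep genes of higher FPKM or leave out those listed at 0, and subtraction of the median over 20 bins of GC content or transcript length. The tools were Python 3.11.15, numpy 2.4.6, pandas 2.3.3 and, for figures, matplotlib 3.10.9. The calls and subtractions were tested on simulated data.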

Additional observations from a re-analysis of the deposited data

How the results depend on the processing

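None of the 7 enzyme genes past 1.5-fold changed sign under any alternative. Of the genes of highest mean FPKM in each group, PRMT1 (0.013) and HDAC6 (0.059) were higher in place of lower after the GC subtraction. Among the other members, so were KMT5C (0.31), KDM6B (0.17), SIRT7 (0.12), KAT8 (0.11), PRMT7 (0.07), DNMT3B (0.05), PRMT6 (0.03) and KDM2B (0.02). KDM7A (-0.06), TET1 (-0.04) and PRMT9 (-0.15) were lower in place of higher. The median of the arginine methyltransferases was above 0 in 4 alternatives, by at most 0.038, and that of the deacetylase and sirtuin genes in the 2 given below. With 1 library per group nothing could be left out, and differences between groups and between libraries cannot be told apart. No paired analysis was possible because there was 1 library per group. Of the alternatives' summary values, 103 stayed within 1.5 times the count or within 0.1 of the median on the log2 scale, and 17 did not. The count of all genes past 1.5-fold, 2000, became 3301 with a pseudocount of 0.1, 3481 with 0.01, 3133 after rescaling, 774 at 2-fold, 1239 when both libraries had to reach 1 FPKM and 873 when the mean had to reach 5 FPKM. The enzyme genes past the threshold became 1 higher and 0 lower at 2-fold, 3 lower with a mean of 5 FPKM or more, 2 lower after the GC subtraction and 1 higher without genes that share exons. The last of these was added once the values were known. The median of the DNA methylation enzymes was -0.31 with a pseudocount of 0.01, -0.29 after rescaling and -0.33 with a mean of 5 FPKM or more. The median of the deacetylase and sirtuin genes was 0.28 with a mean of 5 FPKM or more and 0.052 after the GC subtraction, and that of the acetyltransferases was -0.10 after the GC subtraction. Fewer genes enter under the filters, and the cause of the other shifts was not tested. SETD1A passed 1.5-fold with either smaller pseudocount and after rescaling, and so did HDAC10, while SIRT5 passed it on the higher side with both smaller pseudocounts (0.61 with 0.1 and 0.66 with 0.01). The share of enzyme genes past 1.5-fold stayed below that of all genes in every alternative, from 1.25% against 6.66% at 2-fold to 12.5% against 28.4% with a pseudocount of 0.1. In the alternative without genes that share exons, the comparison is unlike, as overlap was computed only for the enzyme genes and the gene lists. Depth is unknown, so values near 1 FPKM, such as SIRT6 in sh-CRNDE, cannot be given a counting error.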

Other observations

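Genes that make the cofactors of these enzymes were listed in both libraries, and 1 of 14 rose past 1.5-fold and 1 fell past it, against 17.2% of all genes in either direction. AHCY, which clears S-adenosylhomocysteine, the product and inhibitor of methyltransferases, rose from 41.2 FPKM under sh-Control to 73.3 FPKM under sh-CRNDE, a change of 0.82. MTHFD2, of mitochondrial 1-carbon metabolism, fell from 46.5 to 24.3 FPKM, a change of -0.91, with 36.8% of its exon bases under exons of other genes. MAT2A, which makes the methyl donor S-adenosylmethionine, was at 79.9 and 80.2 FPKM, while its regulatory partner MAT2B was at 7.62 and 11.9 FPKM, a change of 0.58 that lay just short of the threshold. OGDH, the dehydrogenase of 2-oxoglutarate, a cofactor of the JmjC and TET enzymes, was at 26.4 and 17.5 FPKM, a change of -0.57. MAT2A, MAT2B and OGDH were named after their values were seen. The median of the 14 genes was -0.09.

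Readers and partners of DNA methylation held 3 genes that fell past 1.5-fold and 0 that rose among 14 (21.4%, against 17.2% of all genes past 1.5-fold in either direction and 8.83% lower), with a median of -0.04. ZBTB33 (Kaiso), a zinc finger protein that binds methylated DNA, was at 11.2 FPKM under sh-Control and 0.112 FPKM under sh-CRNDE. WT1, a transcription factor that brings TET2 to its targets, was at 10.4 and 4.97 FPKM, a change of -0.94.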
